A study of Mus musculus domesticus and Mus musculus molossinus with 8 samples.

Results

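The Cyp2 genes encode the cytochrome P450 enzymes of family 2, and 48 of the 23284 genes in the deposited tables belonged to them. They were taken by symbol: Cyp2, a subfamily letter and a member number. Livers and thymi of 4 mice, each 8 weeks old, were sequenced as polyadenylated RNA. B6 stands for C57BL/6 (labelled Mus musculus domesticus), the standard inbred strain, and MSM for MSM/Ms (labelled Mus musculus molossinus), an inbred strain founded from Japanese wild mice. Of each strain 1 animal was left untreated, and 1 received 1.5 µg of MegaFasL by intraperitoneal injection, a clustered form of the ligand of the death receptor Fas. Both organs were taken from each animal, so every one of the 8 combinations of strain, treatment and tissue was 1 library. The labels give neither sex nor the hours between injection and collection.

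A P450 enzyme of this family sits in the endoplasmic reticulum membrane, holds a heme iron through a single conserved cysteine, and inserts 1 oxygen atom into its substrate with electrons passed on by the reductase Por. Hepatocytes carry most of these enzymes and use them on drugs, steroids, retinoids, bile acids and polyunsaturated fatty acids. In the mouse the family has expanded by local duplication, and several members are known to be set by growth hormone pulses, which makes them male-biased or female-biased, or by the receptors CAR and PXR, which makes them inducible by drugs.

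Levels are given as FPKM, which normalizes fragments to transcript length and to the mapped fragments of the library. Every set of 4 values has both untreated mice first, B6 before MSM, and then both injected mice, B6 before MSM. By the depth estimated from the values themselves, 1 FPKM on 1 kb of transcript stood for 1.57 to 1.78 fragments in livers and 2.82 to 3.43 in thymi. The authors' 95% intervals reached down to 0 for every Cyp2 value, and for liver values of at least 10 FPKM the upper bound was 2.14 to 4.06 times the value. The MSM untreated thymus library stood apart: hepatocyte marker genes there summed to 2.84% of their sum in the B6 untreated liver. In the B6 untreated, B6 injected and MSM injected thymi it was 0.0371%, 0.0772% and 0.219% of the sum in the B6 liver of the same treatment. Thymocyte markers in the B6 untreated liver summed to 1.82% of their sum in the B6 untreated thymus. The other livers held 0.255% to 0.304% of the sum in the B6 thymus of the same treatment. The hepatocyte markers, led by Alb at 55240 to 86090 FPKM, matched the liver labels.

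The Cyp2 genes summed to 11531 FPKM in the B6 untreated liver, 11082 in the MSM untreated liver, 15152 in the B6 injected liver and 15718 in the MSM injected liver, which was 1.61% to 2.39% of all FPKM. Between strains these sums were close at each treatment, while single members lay far apart. The liver mean was 1 FPKM or more for 34 members, 31 reached 10 FPKM in a liver and 23 reached 100 FPKM. The other 14 were below 1 FPKM in every liver, 11 of them were listed at 0 in all 4, and 8 were listed at 0 in all 8 libraries. These 14 include the extrahepatic members Cyp2b19 of skin, Cyp2s1 of epithelia and Cyp2w1 of the gut.

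Cyp2e1, which oxidizes ethanol and acetaminophen, was the most abundant member, with 3516, 3553, 4762 and 6328 FPKM. The 2c subfamily held 42.1% of the family's FPKM in the B6 untreated liver and 21.4% in the MSM injected liver, with 35.3% and 35.9% in the MSM untreated and B6 injected livers. The 2a subfamily moved the other way, from 8.75% in the B6 untreated liver through 15.6% and 16.7% to 25.7% in the MSM injected liver. The 2b subfamily summed to 574 and 520 FPKM in B6 livers and to 12.4 and 8.00 FPKM in MSM livers, and this was the subfamily with the widest gap between strains among those that reached 100 FPKM.

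**Figure D1:**
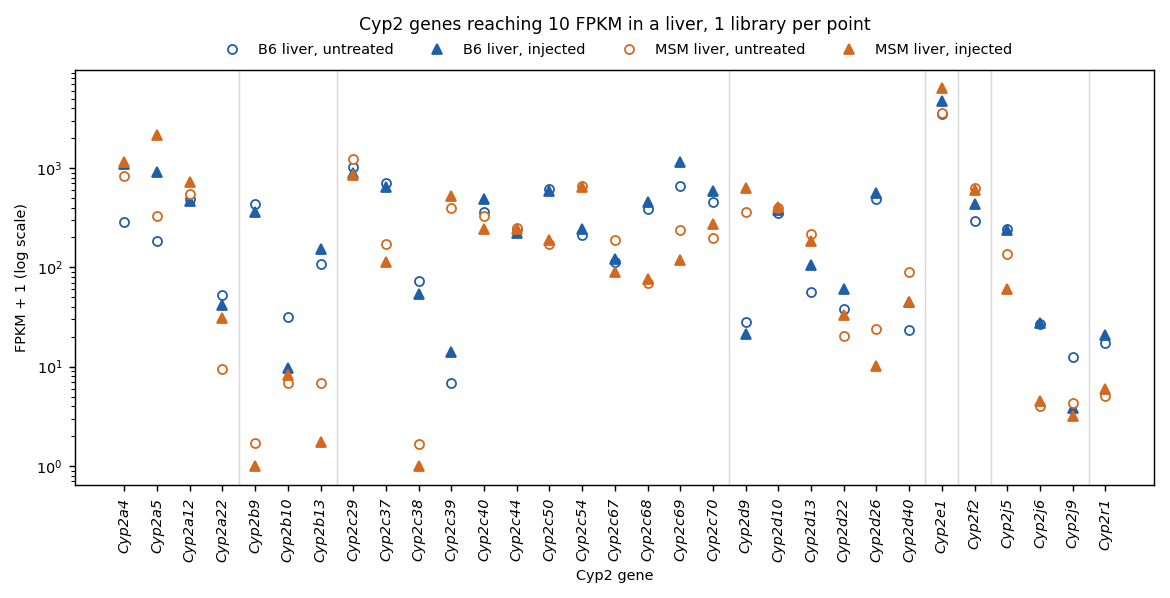
FPKM + 1 on a log scale of the 31 Cyp2 genes that reached 10 FPKM in a liver, ordered by subfamily, with 1 point per liver library (circles untreated, triangles injected, blue B6, orange MSM). Cyp2b9, Cyp2b13, Cyp2c38 and Cyp2d26 were low in both MSM livers and high in both B6 livers, Cyp2c39 and Cyp2d9 the reverse, and the 4 points of Cyp2c44 and Cyp2d10 nearly coincided.

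The strain difference in liver, MSM minus B6, was tested with limma on log2(FPKM + 1) over 10971 genes with treatment as a block. Of the 34 Cyp2 genes tested, 11 passed an adjusted p of 0.05, 3 higher and 8 lower in MSM, where 1.47% of all genes tested passed (0.51% higher and 0.957% lower). The median absolute difference was 1.29 over the 34 members and 0.35 over all genes (log2). Both MSM livers lay above both B6 livers for 8 members and below them for 17, against 20.5% and 22.8% of all genes, and the groups overlapped for 9. Each error below is the SE of a difference with n = 2 mice per strain, 1 untreated and 1 injected. It combines how far the strain difference varied between the treatments with the variation that limma's trend expects over all genes at that level. It does not hold the spread among like mice, since the libraries of a strain have no other replicate. Leaving out any 1 liver library, which also takes the treatment term out of the fit, left 0 members past the limma threshold and 15 to 20 with an unadjusted p under 0.05. All 11 kept their sign in each of these fits.

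**Figure D2:**
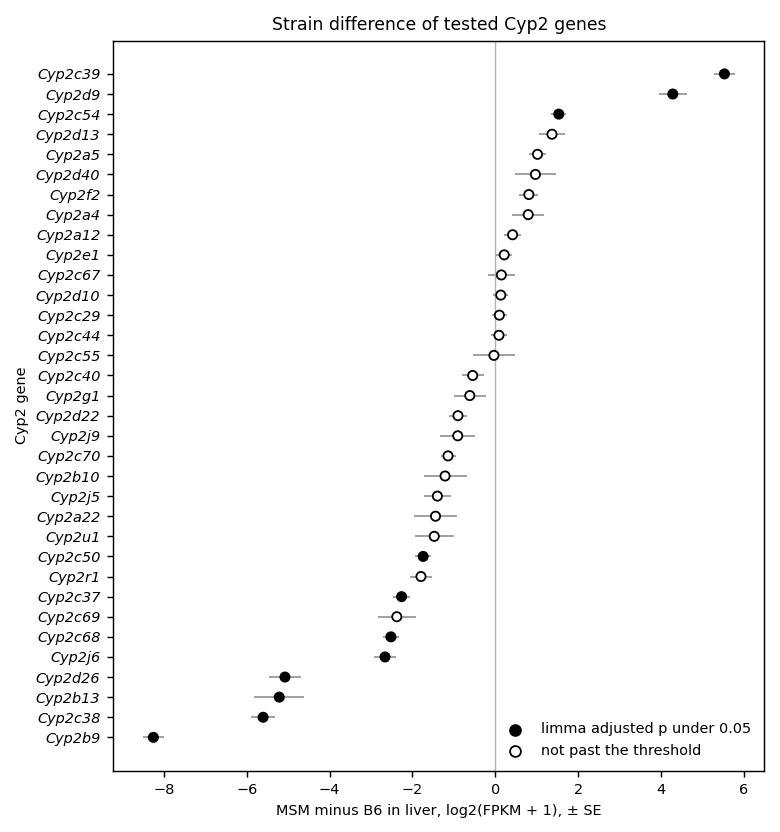
Strain difference in liver (MSM minus B6, log2 of FPKM + 1, bars ± SE, n = 2 mice per strain) of the 34 Cyp2 genes tested, ordered by size. Filled points passed a limma adjusted p of 0.05: 3 lie to the right of 0 and 8 to the left, from 5.52 for Cyp2c39 to -8.25 for Cyp2b9.

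In the 2b subfamily, Cyp2b9 and Cyp2b13 are female-biased steroid hydroxylase genes that lie side by side on chromosome 7. Cyp2b9 (chr7:26173411-26210661, mm10, plus strand) stood at 435, 0.690, 359 and 0 FPKM, so it was listed at 0 in the MSM injected liver. By the estimated depth these were about 1180, 2.00, 1070 and 0 fragments. Its difference was -8.25 ± 0.26 (limma adjusted p = 0.00204), a value that depends on the added 1 because of the 0. Cyp2b13 (chr7:26061497-26096197, plus strand) stood at 108, 5.87, 152 and 0.760 FPKM and was lower by -5.21 ± 0.61 (adjusted p = 0.0384). Cyp2b10, the phenobarbital-inducible target of CAR in the same cluster, stood at 30.6, 5.88, 8.65 and 7.24 FPKM. Both its MSM values were below both B6 values, but most of the gap was in the untreated pair and the test did not pass (-1.21 ± 0.52, adjusted p = 0.347).

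The coding sequences of Cyp2b9 and Cyp2b13 were 92.7% identical, and 12.3% of all 50-base windows of the Cyp2b13 coding sequence also occur in Cyp2b9. The stretch of 30 coding bases around the heme-binding cysteine, read from GENCODE M21 transcripts (mm10) and printed with the cysteine codon in capitals, shows how alike these neighbours are.
Cyp2b9: ttctccacaggaaagcgcattTGTcttggt
Cyp2b13: ttctccacaggaaagcgcattTGTcttggt
The stretches were the same, and a read that lies wholly inside such a part cannot be assigned to 1 of the genes. How many reads did so was not tested. Summed over the pair, the FPKM were 543, 6.56, 511 and 0.760, so the pair as a whole was also far lower in both MSM livers.

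In the 2c subfamily, the neighbours Cyp2c38 and Cyp2c39 went in opposite directions. Cyp2c39 (chr19:39510862-39568529, plus strand), a retinoic acid hydroxylase gene, stood at 5.89, 396, 13.1 and 517 FPKM and was higher in MSM by 5.52 ± 0.25 (limma adjusted p = 0.00386). Cyp2c38 (chr19:39389556-39463075, minus strand), an arachidonic acid epoxygenase gene, stood at 71.7, 0.650, 52.7 and 0 FPKM and was lower by -5.60 ± 0.28 (adjusted p = 0.00461). The B6 livers thus held mainly Cyp2c38 of the pair and the MSM livers almost only Cyp2c39. Their coding sequences were 94.2% identical, and their heme-binding stretches, shown because the pair splits by strain, differed at 1 base, G18T from Cyp2c38 to Cyp2c39, counted from 1 at the 5′ end of the stretch.
Cyp2c38: ttctcagcaggaaaacgggttTGTgctgga
Cyp2c39: ttctcagcaggaaaacgtgttTGTgctgga
The summed FPKM of the pair were 77.6, 397, 65.8 and 517, still higher in both MSM livers. Whether reads of one gene were counted for the other was not tested.

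Cyp2c37, Cyp2c50 and Cyp2c54 are adjacent epoxygenase genes of arachidonic and linoleic acid. Cyp2c54 (chr19:40037940-40073827, minus strand) stood at 211, 662, 241 and 645 FPKM and was higher in MSM by 1.53 ± 0.19 (limma adjusted p = 0.0420). Cyp2c37 stood at 701, 171, 639 and 112 FPKM and was lower by -2.26 ± 0.21 (adjusted p = 0.0238). Cyp2c50 stood at 611, 169, 590 and 188 FPKM and was lower by -1.74 ± 0.19 (adjusted p = 0.0336). For all 3, untreated and injected libraries of a strain were close and the strains did not overlap. The 3 coding sequences were 95.1% to 96.1% identical, and the stretches below are shown because Cyp2c37, which was lower, and Cyp2c54, which was higher, have the same one, while Cyp2c50 differs from Cyp2c37 by G12A.
Cyp2c37: ttctcaacagggaaacggataTGTgcagga
Cyp2c54: ttctcaacagggaaacggataTGTgcagga
Cyp2c50: ttctcaacaggaaaacggataTGTgcagga
Their summed FPKM were 1524, 1003, 1470 and 946, a gap of -0.60 in untreated and -0.64 in injected livers (log2 of the ratio), smaller than that of Cyp2c37 or Cyp2c50 alone.

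Cyp2c40, Cyp2c67, Cyp2c68 and Cyp2c69, with 92.2% to 97.7% identity, share 1 heme-binding stretch, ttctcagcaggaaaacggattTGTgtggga, which is shown because no read inside it can tell them apart. Cyp2c68 stood at 387, 69.3, 457 and 75.9 FPKM and was lower in MSM by -2.52 ± 0.19 (limma adjusted p = 0.0141). Cyp2c69 stood at 658, 238, 1149 and 116 FPKM, without overlap of the strains, but its gap grew from untreated to injected mice and it did not pass (-2.38 ± 0.45, adjusted p = 0.110). Cyp2c40, which hydroxylates arachidonic acid, stood at 358, 331, 482 and 244 FPKM (-0.55 ± 0.27, adjusted p = 0.399). Cyp2c67 stood at 113, 189, 120 and 88.0 FPKM, and its strains overlapped. The 4 genes together stood at 1517, 827, 2208 and 524 FPKM, lower in both MSM livers.

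The remaining liver members of 2c were near each other between strains or missed the threshold. Cyp2c29, an abundant epoxygenase, stood at 1034, 1233, 889 and 852 FPKM, and its strains overlapped. Cyp2c44, also an epoxygenase, stood at 243, 250, 222 and 243 FPKM in the 4 mice, among the most even values of the family. Cyp2c70, which makes the muricholic bile acids of rodents, stood at 455, 198, 587 and 275 FPKM, below both B6 livers in MSM (-1.14 ± 0.18, limma adjusted p = 0.0733). Cyp2c55 stayed at or below 2.73 FPKM.

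In the 2d subfamily, Cyp2d9 and Cyp2d26 were the pair that split by strain. Cyp2d9 (chr15:82433437-82456845, plus strand), the male-biased testosterone hydroxylase gene, stood at 27.3, 362, 20.3 and 625 FPKM and was higher in MSM by 4.28 ± 0.33 (limma adjusted p = 0.0147). Cyp2d26 (chr15:82790101-82794294, minus strand) stood at 492, 22.8, 564 and 9.26 FPKM and was lower by -5.08 ± 0.38 (adjusted p = 0.0141). The ranges of the strains lay far apart for both, in opposite directions. Their coding sequences were 81.7% identical, and they shared no 50-base window. Their heme-binding stretches are shown because they are the same in spite of this distance, while Cyp2d10, closer to Cyp2d9 with 92.5% identity, differs from both at the last base (T30G from Cyp2d10 to either).
Cyp2d9: ttctcagcaggccgcagatcaTGCctgggg
Cyp2d26: ttctcagcaggccgcagatcaTGCctgggg
Cyp2d10: ttctcagcaggccgcagatcaTGCctgggt

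Cyp2d10 stood at 356, 391, 375 and 408 FPKM, the most even of the abundant 2d genes. Cyp2d13, which RefSeq lists as a transcribed pseudogene, stood at 56.1, 216, 105 and 183 FPKM, higher in both MSM livers (1.36 ± 0.32, limma adjusted p = 0.156). Cyp2d22 stood at 37.5, 19.2, 60.2 and 32.5 FPKM, lower in both MSM livers (-0.90 ± 0.22, adjusted p = 0.167). Cyp2d40 stood at 22.3, 88.0, 43.8 and 43.8 FPKM, with overlap. In sum the 2d genes came to 991, 1100, 1169 and 1303 FPKM, so the subfamily's total differed much less between strains than Cyp2d9 or Cyp2d26.

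**Figure D3:**
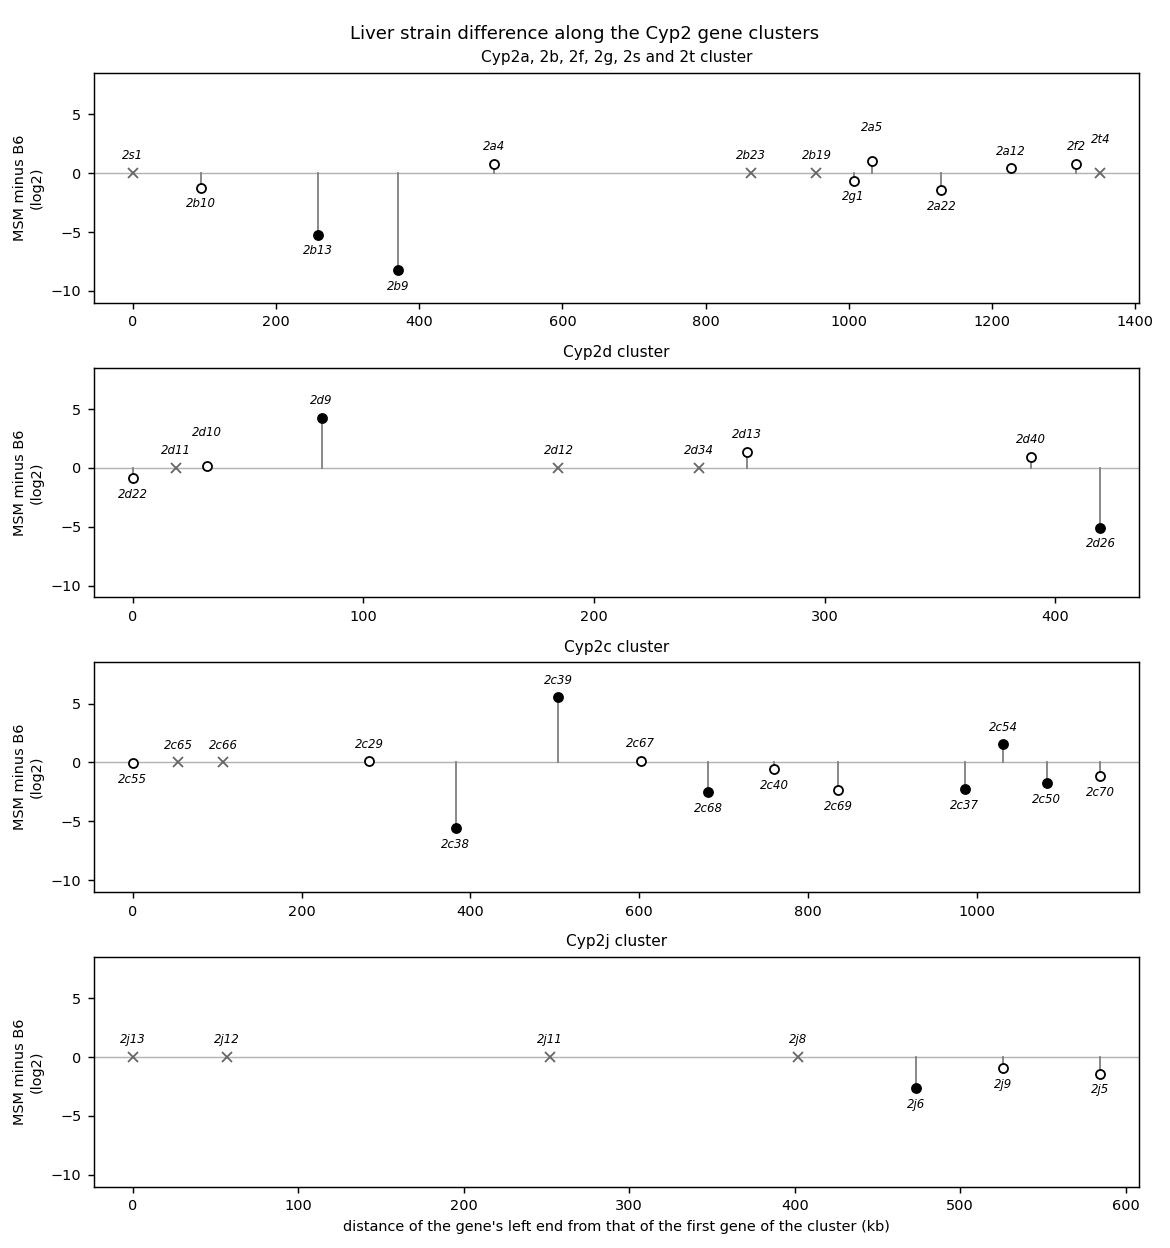
Strain difference in liver (MSM minus B6, log2 of FPKM + 1) against the distance of each Cyp2 gene from the first gene of its cluster, in kb. Filled points passed a limma adjusted p of 0.05, open points did not, and crosses were not tested because their mean was under 1 FPKM. Cyp2c38 (-5.60) and Cyp2c39 (5.52) are neighbours, as are Cyp2b13 and Cyp2b9, while Cyp2d9 and Cyp2d26 lie apart in their cluster.

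In the 2a subfamily no gene passed the strain test. Cyp2a5, the coumarin hydroxylase gene, stood at 185, 326, 922 and 2143 FPKM. Cyp2a4, a testosterone hydroxylase gene, stood at 288, 839, 1106 and 1142 FPKM. In both genes the MSM library was above the B6 library within each treatment, by 1.02 ± 0.20 for Cyp2a5 (limma adjusted p = 0.117) and by 0.79 ± 0.38 for Cyp2a4 (adjusted p = 0.394). For Cyp2a4 almost all of the gap was in the untreated pair (1.54), and the injected pair was nearly level (0.046). Cyp2a4 and Cyp2a5 differ at 23 of 1482 coding bases (98.4% identity). The codon of the residue known from mutagenesis to switch the enzyme between steroid and coumarin is in capitals in the next lines, and it carries C625T from Cyp2a4 to Cyp2a5, counted from the start codon.
Cyp2a4: atgctgggaagcCTCcagttcactgctacc
Cyp2a5: atgctgggaagcTTCcagttcactgctacc
Of the 50-base windows of Cyp2a4, 38.2% also occur in Cyp2a5, so the split between them is uncertain, and their sum was 473, 1165, 2027 and 3285 FPKM. Cyp2a12, a hydroxylase of steroids and bile acids, stood at 484, 552, 467 and 728 FPKM. Cyp2a22, 97.0% identical to it, stood at 52.0, 8.56, 40.6 and 30.2 FPKM.

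Of the single-gene subfamilies, Cyp2f2, which activates naphthalene in the airway and is also a periportal liver gene, stood at 291, 635, 429 and 604 FPKM. Both MSM livers were above both B6 livers, and the test did not pass (0.81 ± 0.23, limma adjusted p = 0.214). Cyp2e1 overlapped between strains. Cyp2r1, a vitamin D hydroxylase gene, stood at 16.3, 4.06, 19.9 and 4.92 FPKM, lower in both MSM livers without passing (-1.80 ± 0.27, adjusted p = 0.0644). Cyp2g1, the olfactory member, stayed at or below 5.05 FPKM and Cyp2u1, a fatty acid hydroxylase, at or below 3.13 FPKM.

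In the 2j subfamily, Cyp2j6 (chr4:96516138-96553661, minus strand) stood at 26.2, 3.06, 26.4 and 3.56 FPKM and was lower in MSM by -2.66 ± 0.27 (limma adjusted p = 0.0300). Cyp2j5, an arachidonic acid epoxygenase gene, stood at 241, 136, 239 and 59.6 FPKM, again lower in both MSM livers, without passing (-1.40 ± 0.33, adjusted p = 0.155). Cyp2j9 stood at 11.5, 3.32, 2.87 and 2.19 FPKM, with overlap. All 3 expressed 2j genes had negative strain differences, and 1 passed. The nearest member to Cyp2j6 was Cyp2j9 with 82.8% identity.

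Some values moved with these differences. MSM reads were aligned to mm10, which is built from C57BL/6, and reads that diverge from it can be lost in MSM. Each liver library of either strain listed 14 members at 0, not all the same ones. In B6 livers 34 and 33 members reached 1 FPKM, against 30 and 29 in MSM livers. The same count over all genes of each liver is not given, so whether this gap is particular to Cyp2 genes is not known. Whether divergence lowered the 8 called genes was not tested. Kupffer cell markers summed to 244 and 121 FPKM in B6 livers and to 56.3 and 38.2 FPKM in MSM livers. Of 7 tested, 1 was lower past the limma threshold (Csf1r, -2.38, adjusted p = 0.0405), where 0.957% of all genes were lower. The part of Kupffer cells was not tested. None of the 8 hepatocyte, 9 pericentral or 7 periportal markers passed, where 1.47% of all genes did. At that share, lists of this size would hold few or none, so these counts say nothing particular about hepatocytes or their zones.

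Genes that work with or control the Cyp2 genes were taken from lists and read from the same strain test. Of 13 measured redox and heme synthesis partners, 0 passed, and of 22 regulators, among them Nr1i3 (CAR), Nr1i2 (PXR), Hnf4a and Cebpa, 0 passed, where 1.47% of all genes did. At that share, lists of this size would hold few or none, so these counts say nothing particular about partners or regulators. In the list of CAR and PXR targets outside the family, 3 of 11 were lower in MSM past the limma threshold and 0 were higher. The lower ones were Cyp3a13 (-1.94, adjusted p = 0.0385), the carboxylesterase Ces2a (-2.91, adjusted p = 0.0308) and the sulfotransferase Sult2a1 (-4.81, adjusted p = 0.0462). Other targets went the other way without passing. Cyp3a11 stood at 2317, 7332, 653.5 and 7272 FPKM (2.57 ± 0.45, limma adjusted p = 0.0921), and Gadd45b differed by 2.31 ± 0.87 (adjusted p = 0.303). The list thus had no common direction. Of 11 growth hormone axis genes only the signalling inhibitor Socs2 passed, at 55.5, 3.48, 67.9 and 5.35 FPKM (-3.55 ± 0.25, adjusted p = 0.0112). The repressor Bcl6 stood at 2.57, 21.4, 2.70 and 14.0 FPKM (2.33 ± 0.31, adjusted p = 0.0523).

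Sex-biased genes are grouped here by background knowledge, and earlier results of these data were known when they were listed. As the labels give no sex, whether the mice of both strains were of the same sex is unknown. A sex difference thus cannot be told apart from a strain difference, for these genes or in the strain tests above. The male-biased member Cyp2d9 was higher in MSM. Of the 6 female-biased members 2 were lower, Cyp2b9 and Cyp2b13, while Cyp2a4, Cyp2b10, Cyp2c40 and Cyp2c69 did not pass. Outside the family 3 of 6 tested male-biased genes were higher in MSM (Cyp4a12a, Cyp4a12b and Mup20), where 0.51% of all genes were higher and 0.957% lower. Of 8 female-biased genes 3 were lower, Cyp17a1 (-4.18), Sult2a1, which is also on the list of CAR and PXR targets, and A1bg (-6.80), and 1 was higher, Hao2 (2.11, limma adjusted p = 0.0462).

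With injection, Cyp2a5 was the only Cyp2 gene of the 34 at least 2-fold apart in the same direction in both strains. Its FPKM went from 185 to 922 in B6 and from 326 to 2143 in MSM, 2.25 and 2.68 on the log2(FPKM + 1) scale after centring each liver library by its median ratio. These are 1 library against 1 in each strain, and treatment coincides with the separately normalized table, so no test was made and the injection and the table cannot be told apart. Of all genes tested, 1.64% were at least 2-fold higher in both strains, 1.24% at least 2-fold lower, and 1.07% in opposite directions. No member was 2-fold apart in opposite directions. The member medians were 0.13 in B6 and -0.02 in MSM.

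Other members passed 2-fold in 1 strain. In B6 these were Cyp2a4 (1.87, against 0.41 in MSM), Cyp2b10 (-1.77, against 0.23), Cyp2j9 (-1.74, against -0.46) and Cyp2c55 (-1.90, against -0.96), which with Cyp2a5 made 5 of 34, where 12.7% of all genes passed in B6. In MSM 9 of 34 passed, where 13.8% of all genes did. They included Cyp2a22 (1.67, against -0.41 in B6), Cyp2g1 (1.49, against 0.86), Cyp2b13 (-1.98, against 0.44), Cyp2d26 (-1.25, against 0.13) and Cyp2j5 (-1.22, against -0.07). Some of these changes rest on few estimated fragments. From untreated to injected they were 17 and 2 for Cyp2b13 in MSM, 2.05 and 10.2 for Cyp2g1 in MSM, and 7.94 and 0 for Cyp2c55 in B6. With an added value of 5, the change of Cyp2b13 in MSM was -0.92, short of 2-fold. Whether any of these changes differs between strains was not tested.

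**Figure D4:**
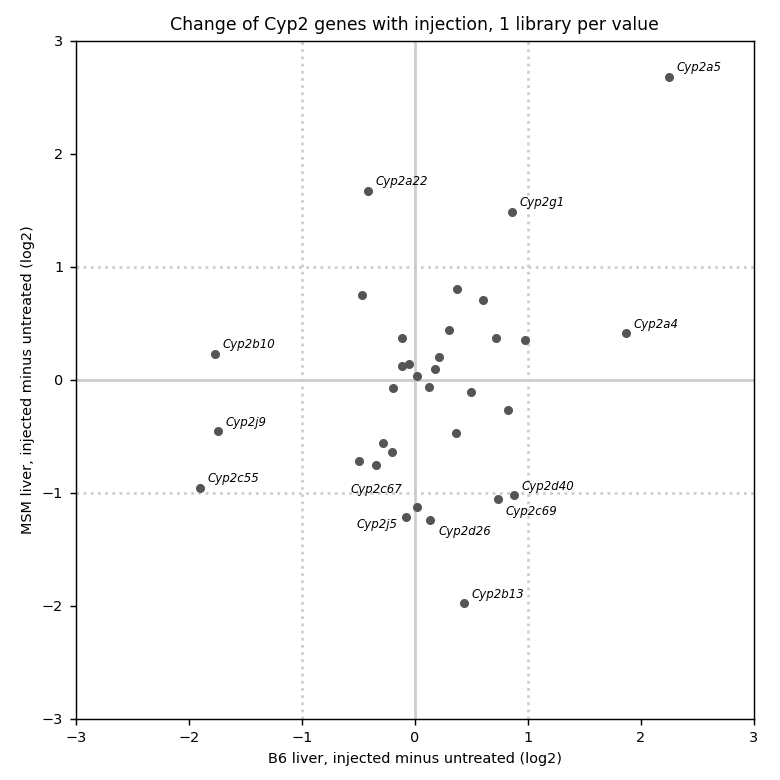
Change of the 34 Cyp2 genes with injection in MSM liver against B6 liver, in log2(FPKM + 1) after centring, with 1 library per strain and treatment. Dotted lines mark 2-fold. Cyp2a5 alone lies past 2-fold in both strains (2.25 and 2.68).

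Among partners, 2 of 13 were at least 2-fold higher in both strains after injection, where 1.64% of all genes tested were. Here too no test was made, and the injection and the separately normalized table cannot be told apart. The electron donor Por stood at 41.3, 55.3, 224 and 306 FPKM (centred log2 change 2.35 in B6 and 2.42 in MSM), and Alas1, the first enzyme of heme synthesis, at 104, 40.7, 501 and 288 FPKM (2.20 and 2.76). Of 22 regulators 3 were at least 2-fold higher in both strains, beside the same share of all genes. They were Dbp (3.66 and 3.41) and Tef (3.02 and 2.51), both clock-output transcription factors, and the fatty acid receptor Ppara (1.12 and 1.61). The labels do not give the time of day of collection. Cyb5b, a further electron carrier, stood at -0.24 in B6 and -0.65 in MSM.

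In thymus the Cyp2 genes summed to 13.9, 387, 34.1 and 28.4 FPKM. Of the 386.6 FPKM in the MSM untreated thymus, Cyp2e1 made up 109 and Cyp2f2 52.8. In that library 27 members reached 1 FPKM, against 3, 7 and 6 in the B6 untreated, B6 injected and MSM injected thymi. As 22 members passed the filter of 1 FPKM over the thymi, mostly through that library, their strain test describes that library and cannot speak to the strains. With limma 0 of 22 passed (4 at an unadjusted p under 0.05), where 0.973% of all genes did (0.379% higher and 0.594% lower). Without the MSM untreated thymus only 4 members passed the filter, with a median strain difference of 0.59 (log2), against 1.70 over the 22. Without the MSM injected thymus, which left the MSM untreated one as the only MSM thymus, the median was 2.88.

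The Cyp2 pattern in the MSM untreated thymus was closer to the B6 untreated liver than to the liver of the same strain and mouse. Cyp2b9 stood at 12.1 FPKM there, about 56.9 fragments, and at 0.690 FPKM in the MSM untreated liver. Cyp2d26 stood at 13.0 FPKM against 22.8 in that liver, and Cyp2c38 at 1.99 against 0.650. The members high in MSM liver were low in it: Cyp2c39 stood at 0.214 FPKM and Cyp2d9 at 0.489 FPKM. Across 29 members the levels of this thymus correlated with the B6 untreated liver with Pearson's r = 0.91 on the log scale and Spearman's rho = 0.91, and with the MSM untreated liver with 0.45 and 0.37. These are correlations across genes of single libraries, which are not independent replicates. In the MSM injected thymus the values were higher for the MSM untreated liver (r = 0.63, rho = 0.89) than for the B6 untreated liver (r = 0.47, rho = 0.32). Most members in that thymus rest on fewer than 10 estimated fragments.

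As a share of the B6 untreated liver, 28 members in the MSM untreated thymus lay between 1.79% and 18.1%, with a median of 2.83%. The highest was Cyp2f2, at 18.1%. As a share of the MSM untreated liver, 22 members lay between 0.0540% for Cyp2c39 and 57.0% for Cyp2d26, with a median of 2.63%. Outside the family A1bg, a gene high in B6 liver, stood at 5.24 FPKM in this thymus against 226 in the untreated liver of B6 and 0.713 in that of MSM, and Cyp4a12b at 0.323 against 0 and 154. Markers of airway secretory cells were also found in it, Scgb1a1 at 400 FPKM, Scgb3a1 at 316 and Bpifa1 at 415, while all 4 markers of that list summed to 1.07 to 7.00 FPKM in the other thymi. The 4 fat markers summed to 479 FPKM in it, with Ucp1 at 220, against 53.0 to 95.6 FPKM in the other thymi. How far liver, airway or fat RNA makes up the Cyp2 values of this library was not tested.

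**Figure D5:**
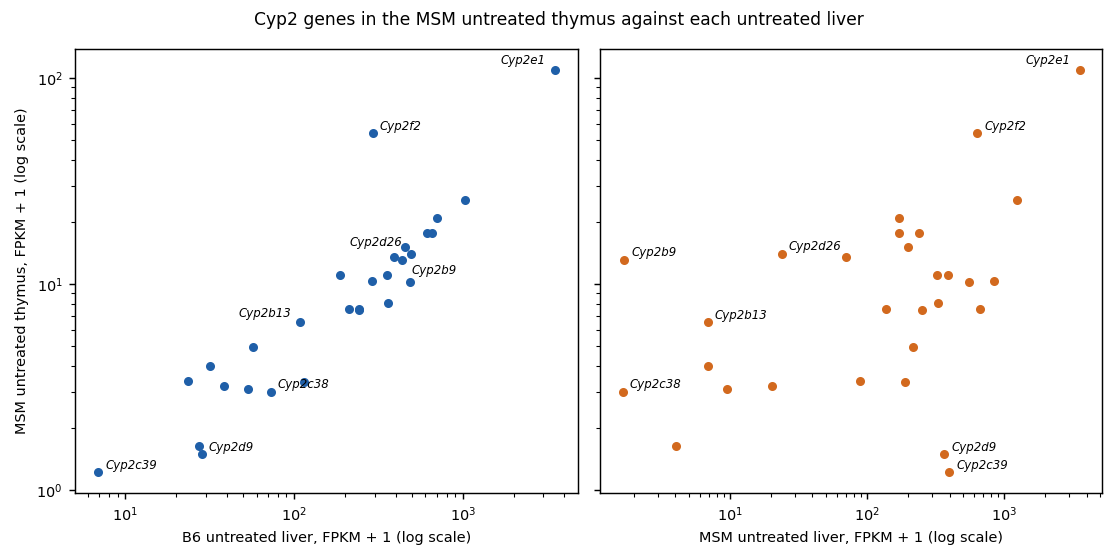
FPKM + 1 of 29 Cyp2 genes in the MSM untreated thymus (y axis, log scale) against the B6 untreated liver (left) and the MSM untreated liver (right), 1 library per axis. On the left the points rise together (rho 0.91), and on the right Cyp2b9, Cyp2c38 and Cyp2d26 lie far above and Cyp2c39 and Cyp2d9 far below the rest (rho 0.37).

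In the other 3 thymi Cyp2e1 was the highest member, at 5.67, 17.4 and 14.8 FPKM in the B6 untreated, B6 injected and MSM injected libraries. Cyp2a5 stood at 2.30, 2.94 and 0.424 FPKM, and Cyp2r1 at 0.408, 1.46 and 2.03. All 34 members tested between tissues reached the filter of 1 FPKM by their liver mean, which favoured a higher liver in advance. Over all mice 29 of 34 members were higher in liver than in thymus with limma and mouse as a block, where 28.6% of all genes were and 60.7% differed in either direction. The others were Cyp2b9 (adjusted p = 0.192), Cyp2b13 (0.0510), Cyp2c38 (0.112), Cyp2c55 (0.0767) and Cyp2u1 (0.216), the first 3 of which stood at or below 5.87 FPKM in MSM livers. Without the MSM untreated mouse 32 of 34 passed. The strain difference itself differed between liver and thymus for 6 of 34 members by limma, 5 with a lower and 1 with a higher value in liver, where 0.365% of all genes passed (0.256% lower and 0.109% higher). Outside the MSM untreated thymus these 6 stood at or below 1.02 FPKM in thymus, so the test mostly restates their liver difference and that library. Without the MSM untreated mouse 0 members passed, and 14 had an unadjusted p under 0.05. Fewer cells of a type and less RNA per cell cannot be told apart in such bulk tissue.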

How the data were processed

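Polyadenylated RNA of 8 libraries was measured, 1 for each combination of strain, treatment and tissue, from 4 mice. The submitters' processing notes name TopHat, mm10 and Cuffdiff 2.2.1, and no source used here names the gene annotation. The authors deposited FPKM in 1 table for untreated and 1 for injected mice, normalized separately, with 95% intervals.

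Members and gene lists were chosen with earlier results of these data known. Any member could be named, those reaching 10 FPKM in a liver are given by library, and other genes came from the lists. Genes averaging 1 FPKM or more (in either tissue where both were compared) were tested on log2(FPKM + 1), computed from the deposited FPKM, with limma 3.58.1 (mean trend, two-sided, Benjamini-Hochberg adjusted p under 0.05 over all genes) in R 4.3.3. Strain fits had treatment as a block and 1 residual degree of freedom, and liver against thymus had mouse as a block. The strain difference between tissues was fitted on the liver minus thymus value of each mouse, a test added after seeing the data. Injection was centred by the median ratio and not tested. The code was tested on simulated data.

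Depth was estimated as the scale that made 71.0% to 75.2% of 302 to 413 low values per library whole fragments within 0.1, with 0.2 kb taken off each transcript, and it covers counting error only. Of the members, 46 matched GENCODE M21 (mm10), and Cyp2c44 and Cyp2d13 did not. The heme-binding stretch codes for the conserved P450 signature around the cysteine. It was sought with a single fixed pattern in the translated longest coding sequence of each gene, and 44 of them matched. Cyp2b10 and Cyp2s1 did not match, which does not mean that they lack the cysteine. Identity of coding sequences is the edit distance over the longer length, taken from 100%. Alternatives were added values of 0.1 and 5, no filter or 5 FPKM, centring, a common sum, limma without trend or robust, other blocks, other folds, and leaving out each library or mouse.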

Additional observations from a re-analysis of the deposited data

Results flagged for a closer look

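For 6 Cyp2 genes the strain difference (MSM minus B6) differed between liver and thymus by limma on the liver minus thymus value of each mouse, a test chosen after seeing the data. It called 6 of 34 members, where 0.365% of all genes passed. The difference in liver minus that in thymus (log2) was -10.1 for Cyp2b9 (adjusted p = 0.0136), -6.23 for Cyp2b13 (0.0108), -6.39 for Cyp2c38 (0.0229), -6.39 for Cyp2d26 (0.0432), -4.84 for Cyp2c69 (0.0242) and 5.11 for Cyp2c39 (0.0432). Outside the MSM untreated thymus all 6 genes stood at or below 1.02 FPKM in thymus, so the test mostly restates their liver difference and that library. In the injected mice alone, hepatocyte markers in thymus were at 0.0772% and 0.219% of the B6 injected liver. Cyp2b9 differed there by -8.49 in liver and by 0.25 in thymus, and Cyp2c39 by 5.20 and 0.98. These thymus values lay near the floor, with 0 and 0.988 estimated fragments for Cyp2b9 in B6 and MSM, and 0 and 4.82 for Cyp2c39. In the untreated mice Cyp2b9 differed by -8.01 in liver and by 3.48 in thymus, the MSM untreated thymus being the library with liver markers. Without the MSM untreated mouse and the treatment term the differences were -8.77 for Cyp2b9, -5.86 for Cyp2b13, -5.97 for Cyp2c38, -5.09 for Cyp2d26, -3.78 for Cyp2c69 and 4.96 for Cyp2c39, and 0 members passed with limma (14 at an unadjusted p under 0.05).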

How the results depend on the processing

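Of the 11 Cyp2 genes called between strains in liver, 3 passed with limma without trend and 0 with no filter on low values (16 members at an unadjusted p under 0.05), where all 23284 genes entered the fit. Leaving out 1 liver library gave 0 to 0 members, from fits with 3 libraries and no treatment term. All 11 kept their sign under each alternative, and the other settings called 10 to 14. In thymus the count of 0 became 0 to 12 when 1 library was left out, 12 without the MSM injected thymus. Liver against thymus called 27 to 32 of the members under every alternative except no filter, with 24. For injection the count of 1 became 4 with an added value of 0.1, 3 after rescaling to a common sum and 4 at 1.5-fold. The strain difference between tissues, 6 members, became 0 to 5 when 1 mouse was left out, 0 without the B6 untreated, MSM untreated or B6 injected mouse (11 to 14 members at an unadjusted p under 0.05 with limma). The cause of these changes was not tested.

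Rescaling to a common sum moved the median of all genes from 0.01 to -0.15 in the liver strain fit and from -0.13 to -1.10 in liver minus thymus. The sign turned only for members that had not passed. With a common sum the liver difference was -0.081 for Cyp2c29, -0.090 for Cyp2c44, -0.032 for Cyp2c67 and -0.047 for Cyp2d10, and the thymus difference of Cyp2a5 was -0.11. With an added value of 0.1, Cyp2c55 in liver was 0.73 and Cyp2a5 in thymus -0.23, and with 5, Cyp2d22 in thymus was 0.039. Leaving out 1 liver library, the difference ran from -0.18 to 1.76 for Cyp2a4, -0.34 to 2.37 for Cyp2a5, -0.17 to 0.36 for Cyp2c29, -0.98 to 0.44 for Cyp2c55, -0.40 to 0.69 for Cyp2c67, -0.20 to 0.63 for Cyp2e1 and -1.37 to 0.14 for Cyp2g1. Leaving out 1 thymus library, it ran from -1.34 to 1.62 for Cyp2a5 and -0.019 to 0.74 for Cyp2d22. Pairing by mouse was part of the liver against thymus fit, and without the mouse term 30 members were called in place of 29. Pairing by replicate number could not be fitted, since each group was 1 library with no such number in the labels.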
